A study of Mus musculus with 2 samples.

Results

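The genes described here are 10 surface proteins of the brush border, the apical membrane of kidney proximal tubule cells. They are the endocytosis receptor genes Lrp2, Cubn and Amn, the peptidase genes Anpep, Mep1a, Mep1b, Ggt1, Dpp4 and Enpep, and the water channel gene Aqp1. Members were the probes, other than controls, that the array files name as a listed gene or its older alias. That gave 11 probes for the 10 genes, out of 20868 distinct probes and 18357 genes tested. All 11 were well above background in all 4 channels, 0 were saturated, all 10 genes passed the filter on dim spots, and 0 probes carried the alias Ggtp. A match through RefSeq names found the same 11 probes.

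RNA of whole mouse kidney labelled Glis2 KO was compared with RNA labelled Glis2 WT on 2 Agilent oligonucleotide arrays, each holding both RNAs in different dyes. Glis2 encodes a zinc finger transcription factor whose loss causes nephronophthisis, a fibrotic kidney disease. The mutant RNA carried Cy3 on replicate 1 and Cy5 on replicate 2. The submitters describe pools of 3 kidneys each, from mice at postnatal days 25 and 60, with 2 independent experiments and duplicate arrays. The age, strain, sex and mutated allele behind each array are not given in the sources used here, nor is whether the arrays are separate experiments. The spread between them may therefore be technical. Every limma p-value rests on it, through each gene's own spread and that pooled over all genes. Median spot signal was between 4.06 and 5.18 times the local background per channel, and precision is limited by having only 2 arrays. The Glis2 probe had log2 ratios of 0.32 and 0.16 (mutant over wild type; adjusted p = 0.328 in limma). It was not lower in the RNA labelled mutant, so it does not check the labels, and each direction below refers to those labels. All 20 markers of the proximal tubule were well above background in every channel.

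Proximal tubule cells take back almost all protein that passes the glomerular filter. The giant receptor megalin (Lrp2) and cubilin (Cubn) bind filtered proteins, vitamin carriers and hormones at the base of the microvilli, and amnionless (Amn) anchors cubilin in the membrane and carries it to the surface. Peptidases on the microvilli then cut filtered peptides and glutathione into amino acids and dipeptides that transporters can absorb, while aquaporin-1 lets water follow the solutes.

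Most of these genes were slightly lower in the RNA labelled mutant. The log2 ratio was below 0 on both arrays for 9 of the 10 genes, and above 0 on both for Dpp4, which degrades incretins and other proline-containing peptides. Amn was among the 9 with a ratio of only -0.004 on replicate 1. The number lower on both arrays was 8 with a normexp offset of 16, plain background subtraction, median centring or the scanner's log ratio. Over all genes tested, 28.9% were lower on both arrays and 31.9% higher on both. The median of the 10 mean log2 ratios was -0.25 (-0.28 on replicate 1 and -0.19 on replicate 2), against 0.01 for all genes. Only Mep1b, the beta subunit of the metalloprotease meprin, was called, at an adjusted p of 0.0499 in limma (adjusted over all genes, called under 0.05). That is 1 of 10 called lower and 0 called higher, against 1.21% of all genes called lower and 3.79% called higher (5.01% in either direction). At an unadjusted p under 0.05, 5 of the 10 were lower (6.31% of all genes): Lrp2, Anpep, Mep1b, Ggt1 and Aqp1. That count was 3 with a normexp offset of 16, plain background subtraction or median centring, 8 with limma's trended, robust prior and 2 when the scanner's log ratio was used. Of the 10, 0 were 1.5-fold lower on both arrays, against 0.528% of all genes. In whole-kidney RNA, fewer proximal tubule cells and less RNA of a gene per cell cannot be told apart.

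**Figure D1:**
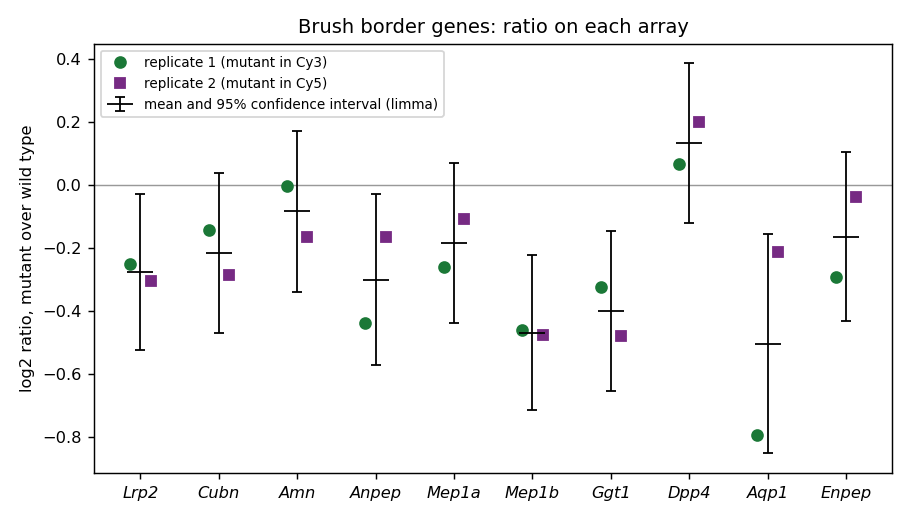
Log2 ratio of mutant over wild type (vertical axis) for the 10 brush border genes on replicate 1 (circles) and replicate 2 (squares), with limma's mean and 95% confidence interval. Both points lie below 0 for 9 genes and above 0 for Dpp4, and the points of Aqp1, at -0.80 and -0.21, lie farthest apart.

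The promoters of 3 of these genes are shown because they stand for the range of the ratios: Aqp1 had the lowest mean, Lrp2 lay near the middle, and Dpp4 alone was higher. Each window, from RefSeq on GRCm38.p6, runs 5′ to 3′ from 250 bases before the annotated start to 50 after it, and capitals mark CpG dinucleotides. Lrp2 lies on the minus strand at chr2:69585980-69586279, Aqp1 on the plus strand at chr6:55336049-55336348, and Dpp4 on the minus strand at chr2:62412182-62412481.
Lrp2 promoter: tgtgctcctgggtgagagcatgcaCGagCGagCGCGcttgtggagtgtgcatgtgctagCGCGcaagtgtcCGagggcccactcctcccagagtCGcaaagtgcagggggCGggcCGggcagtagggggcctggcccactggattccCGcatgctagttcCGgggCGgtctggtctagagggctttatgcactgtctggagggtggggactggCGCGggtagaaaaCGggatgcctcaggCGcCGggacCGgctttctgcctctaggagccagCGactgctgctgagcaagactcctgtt
Aqp1 promoter: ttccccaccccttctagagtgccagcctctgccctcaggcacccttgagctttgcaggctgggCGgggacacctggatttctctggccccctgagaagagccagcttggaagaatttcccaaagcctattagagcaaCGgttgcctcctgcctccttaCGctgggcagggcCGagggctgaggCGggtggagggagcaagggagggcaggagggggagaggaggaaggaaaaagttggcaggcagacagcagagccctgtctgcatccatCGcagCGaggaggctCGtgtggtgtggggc
Dpp4 promoter: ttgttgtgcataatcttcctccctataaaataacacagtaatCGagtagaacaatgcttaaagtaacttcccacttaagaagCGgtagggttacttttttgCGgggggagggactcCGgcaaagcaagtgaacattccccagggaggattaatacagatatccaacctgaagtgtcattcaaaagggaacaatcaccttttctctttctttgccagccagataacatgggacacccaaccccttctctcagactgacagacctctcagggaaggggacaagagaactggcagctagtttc
The Lrp2 window held 20 CpG dinucleotides, the Aqp1 window 8 and the Dpp4 window 4, against a median of 7 over 32851 windows of all genes. RefSeq windows of 9 of the 10 genes were used, 12 in all, since Ggt1 has 4. The selection of windows for the 10 genes left out a chromosome, and no window of Mep1b, the only called gene, is included. The CpG and motif counts therefore do not cover Mep1b. The windows of all genes kept that chromosome, so the counts and the values over all windows come from unlike sets. Among the others, Anpep had 28 CpG dinucleotides, Amn 15, Enpep 7, Mep1a 6, Cubn 5, and the Ggt1 windows 2 to 10. CpG-rich and CpG-poor windows both occurred among the genes with ratios below 0.

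These 12 windows were searched on both strands for a pair of motifs. The core of the site bound by Gli and Glis factors, GACCACCCA, was in 0 of the 12 (0.253% of all windows). The TATA box letters TATAAA were in 3 windows, of Ggt1, Dpp4 and Enpep (13.6% of all windows). Counted from the annotated start, the match lay at -134 in that window of Ggt1 and at -227 in Dpp4. Enpep had matches closer to the start. Whether any of these matches works as a TATA box was not tested. A missing match says only that these letters are not in these windows.

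Of the receptor complex, Lrp2 was the most clearly lower. Its normalised intensity (in arbitrary units that include the offset of 50 added to each channel) was 4116 in the mutant and 4902 in the wild type channel of replicate 1, and 3979 and 4916 on replicate 2. Wild type exceeded mutant on both arrays. Intensities were not scaled between the arrays, so only channels of the same array can be compared directly. The mean log2 ratio was -0.28 ± 0.11 (limma's moderated SE, n = 2), or 82.4% of the wild type level (95% confidence interval 69.5% to 97.9%), with an adjusted p of 0.244. A second, dimmer Lrp2 probe, at 186 against 230 and 197 against 238, gave -0.29 and an adjusted p of 0.248 when limma tested each probe. Both Lrp2 probes thus gave nearly the same ratio in this setting, with the offset included. In the scanner's log ratios, the dimmer probe had -0.40 and -0.37 and the brighter -0.25 and -0.30.

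Cubn had intensities of 1514 in mutant and 1673 in wild type on replicate 1, and 1440 and 1759 on replicate 2. Its log2 ratios, -0.14 and -0.29, averaged -0.22 ± 0.11 (moderated SE, n = 2; adjusted p = 0.381 in limma), and the interval of 72.2% to 103% of wild type includes no change. Amn, its membrane anchor, had 11466 and 11499 on replicate 1 and 11810 and 13239 on replicate 2. The channels of the first array were nearly equal, and the log2 ratios were 0.00 and -0.16 (mean -0.08, adjusted p = 0.767 in limma). For Amn the interval ran from 79.0% to 113% of the wild type level, a range that includes both no change and the value measured for Lrp2.

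The meprin subunits form a metalloprotease that is very abundant in the mouse brush border. Mep1b fell in the RNA labelled mutant, with 2593 in mutant against 3573 in wild type on replicate 1 and 2808 against 3907 on replicate 2. The mutant was below the wild type on each array, and the log2 ratios of -0.46 and -0.48 were the closest pair among the 10 genes (SD 0.010, n = 2). The mean of -0.47 ± 0.11 (moderated SE) corresponds to 72.2% of wild type (95% confidence interval 60.9% to 85.7%). The adjusted p of 0.0499 in limma sits at the threshold. The call was kept in 4 of 11 other ways of processing, whose adjusted p in limma ran from 9.92e-07 to 0.265. These ways are not independent. The authors' value table repeats the scanner's ratios, and several ways left the Mep1b ratio as it was. Mep1b was also the only gene of the 10 with a p under 0.05 for a lower ratio on both arrays in the scanner software's own error model (0.00427 and 0.00437), a rule met by 1.74% of all genes.

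Mep1a, the alpha subunit, had 7295 in mutant and 8739 in wild type on replicate 1 and 8572 and 9238 on replicate 2. The mutant value was below the wild type value on each array. Its mean log2 ratio was -0.18 ± 0.11 (moderated SE, n = 2), with an adjusted p of 0.462 in limma and an interval of 73.8% to 105% of wild type. Whether the subunits differ from each other was not tested.

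Ggt1, gamma-glutamyltransferase, starts the breakdown of filtered glutathione. Its intensities were 26781 in mutant and 33536 in wild type on replicate 1, and 28220 and 39337 on replicate 2. The mutant value lay below the wild type value on each array, with log2 ratios of -0.32 and -0.48. The mean of -0.40 ± 0.11 (moderated SE, n = 2), or 75.7% of wild type (95% confidence interval 63.4% to 90.3%), had an adjusted p of 0.0967 in limma, above the threshold.

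The aminopeptidases Anpep, which removes neutral residues, and Enpep, which cuts angiotensin II, were lower mainly on replicate 1. Anpep had 2142 in mutant and 2904 in wild type there, and 2794 and 3132 on replicate 2, so that log2 ratios were -0.44 and -0.16. Its mean of -0.30 ± 0.12 (moderated SE, n = 2; adjusted p = 0.252 in limma) is 81.1% of wild type. Enpep had 1102 and 1349 on replicate 1, and 1660 and 1705 on replicate 2, where the channels nearly coincided. Its log2 ratios were -0.29 and -0.04, with a mean of -0.17 and an adjusted p of 0.539 in limma.

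Dpp4, dipeptidyl peptidase 4, went the other way, with 1091 in mutant and 1042 in wild type on replicate 1 and 1221 and 1064 on replicate 2. The mutant value was the higher on each array. Its mean log2 ratio of 0.13 ± 0.11 (moderated SE, n = 2; adjusted p = 0.612 in limma) leaves an interval of 92.0% to 131% of the wild type level. Dpp4 is also made by lymphocytes and stromal cells, and of 10 lymphocyte markers 1 was called higher, Cd79b of B cells (0.66), a call lost with a normexp offset of 16, plain background subtraction, median centring and the scanner's log ratio. Its partner Cd79a, named after its value was seen, had -0.42 (adjusted p = 0.292 in limma), with -0.03 and -0.80 on the arrays. The list had a median log2 ratio of 0.16, and summed intensities of 2654 and 2873 in mutant and 2400 and 2636 in wild type on the 2 arrays. Cd4 was not well above background in every channel, and the part of lymphocytes in the Dpp4 value was not tested.

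Aqp1 had the lowest mean of the 10 and the least agreement between arrays. Its intensity was 6918 in mutant and 12016 in wild type on replicate 1, but 12072 and 13996 on replicate 2. The mutant value was thus below the wild type value on each array, but by far less on replicate 2. The log2 ratios were -0.80 and -0.21, with an SD of 0.41 that only 4.21% of all genes exceeded. The mean of -0.50 ± 0.15 (moderated SE, n = 2), or 70.5% of wild type (95% confidence interval 55.3% to 89.7%), had an adjusted p of 0.128 in limma. By replicate 2 alone the ratio of Aqp1 was close to the median of the 10 genes.

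**Figure D2:**
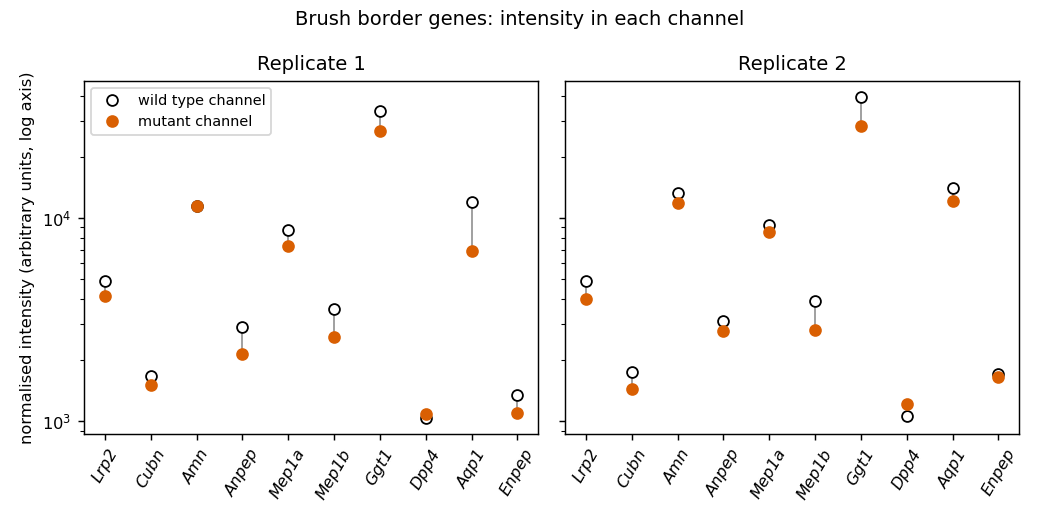
Normalised intensity (arbitrary units, log axis) of the 10 genes in the wild type channel (open circles) and the mutant channel (filled circles) of each array, joined by a line. The mutant channel is lower for 9 genes on both arrays, by the most for Aqp1 on replicate 1 (6918 against 12016), and is slightly higher for Dpp4.

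Aqp1 is also a protein of endothelium and red cells, so their markers were read beside it. Of 10 endothelial markers 0 were called in limma, and the median log2 ratio was 0.06. At an unadjusted p under 0.05 in limma there were 3, all higher in the mutant. Over all 18357 genes there were 3018 in either direction. The largest were Vwf (0.40, adjusted p = 0.154 in limma) and Plvap (0.31, adjusted p = 0.213 in limma). The summed intensity of the endothelial list was 11025 and 13177 in mutant and 10211 and 11153 in wild type. Of 5 measured erythroid markers 3 fell: the globin genes Hbb-b2 (-0.78) and Hba-a1 (-0.77), whose probes may also read their close copies, and the heme synthesis gene Alas2 (-0.63). The sum of the 5 was 40556 and 56148 in mutant and 78613 and 83022 in wild type, and the gap was wider on replicate 1. The gap of the summed proximal tubule markers given further on was also wider there. Of the 10 brush border genes, 5, Aqp1 among them, had the lower ratio on replicate 1 and 5 on replicate 2. The part of red cells in the Aqp1 value was not tested.

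The other 9 water channels had a median log2 ratio of -0.01. Only Aqp4, which lets water leave collecting duct cells on the basolateral side, was called, and it fell by 0.53 on the log2 scale (adjusted p = 0.0319 in limma). The other 8 were not called.

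Among the machinery that serves the receptors, 29 genes for adaptors, coat proteins, channels and small GTPases were measured. Dab2, the clathrin adaptor that binds the tail of megalin, fell, with log2 ratios of -0.49 and -0.58 (mean -0.53 ± 0.11, moderated SE, n = 2; adjusted p = 0.0318 in limma). The other 28 were not called, 0 rose, and the list median was -0.02, near that of all genes. Of 11 measured relatives of megalin in the LDL receptor family, 1 rose and 0 fell: Lrp1, a scavenger receptor of macrophages, fibroblasts and liver cells (0.54 ± 0.11, adjusted p = 0.0350 in limma). Their median was -0.15.

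Other enzymes and related proteins of the tubule surface gave 3 falls and 0 rises among 25 measured, with a median of -0.09. Folh1, a glutamate carboxypeptidase that trims folates (-0.77 ± 0.11, moderated SE, n = 2; adjusted p = 0.00945 in limma), fell most. Alpl, the tissue-nonspecific alkaline phosphatase, also fell (-0.56, adjusted p = 0.0273 in limma). Both of these mean ratios lay below that of Mep1b (-0.47), but differences between genes were not tested.

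Of 23 measured genes that shape the microvilli, 1 fell, 1 rose and 21 were not called, with a median of -0.05. The fall was in Eps8, which caps actin filaments in microvilli (-0.65 ± 0.11, moderated SE, n = 2; adjusted p = 0.0173 in limma). Of 12 transcription factors and coactivators of the tubule, Ppargc1a, a coactivator of mitochondrial genes, rose (0.69 ± 0.11, adjusted p = 0.0122 in limma) and 0 fell, with a median of -0.10.

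Proteins listed here as ligands of megalin and cubilin had called rises and no called fall at the RNA level. Of 14 measured, 7 rose, 0 fell and 7 were not called, with a median of 0.37. Lcn2, a carrier of bacterial iron chelators made by injured tubules and leukocytes, had the largest value (1.46 ± 0.15, moderated SE, n = 2; adjusted p = 0.00196 in limma). It was followed by the lipid carrier Apoe (1.07), the copper protein Cp (0.98), the retinol carrier Rbp4 (0.96) and the chaperone Clu (0.95). Several of these are made by macrophages, fat or injured tubule, and 10 of the 14 were higher on both arrays. RNA in the kidney does not measure the protein that is filtered.

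**Figure D3:**
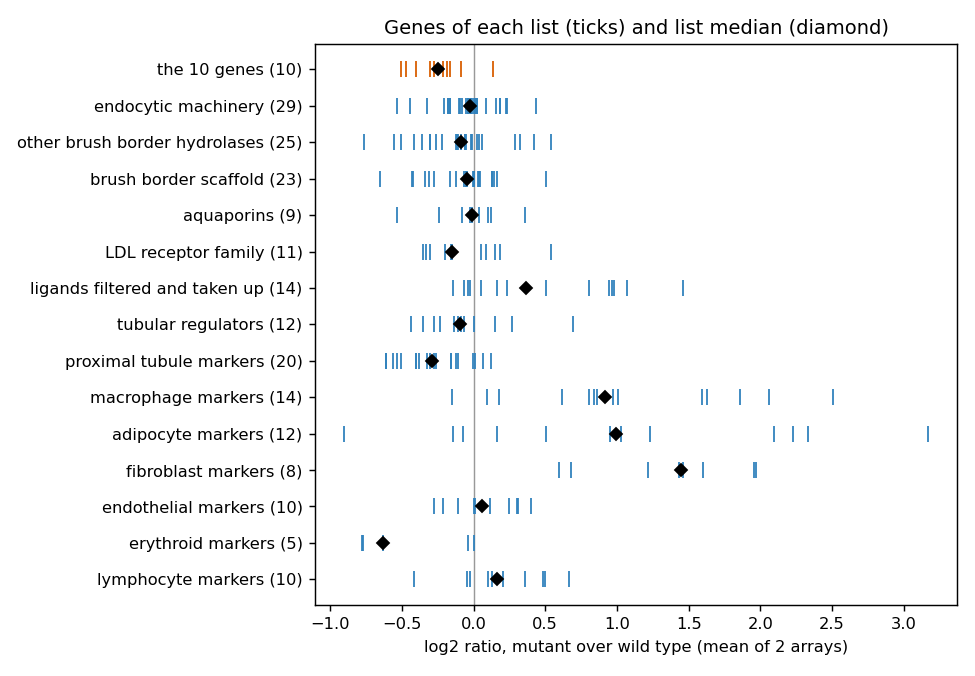
Mean log2 ratio of each gene (ticks, horizontal axis) and the median (diamonds) for the 10 brush border genes, the lists of related genes and the cell type markers, with the number of genes measured in brackets. The brush border genes (median -0.25) lie close to the proximal tubule markers (-0.29), while macrophage, adipocyte and fibroblast markers lie above 0.

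Of 20 proximal tubule markers, 4 fell, 0 rose and 16 were not called; 16 were lower on both arrays, and the median log2 ratio was -0.29. The calls were the phosphate transporters Slc34a1 (-0.61) and Slc34a3 (-0.54), the organic anion transporter Slc17a3 (-0.56) and the acyl-CoA synthetase Acsm2 (-0.61). These 4 falls, those of Aqp4, Dab2, Folh1, Alpl, Eps8 and the erythroid genes, and the rises of Lrp1 and Ppargc1a were not called in limma with a normexp offset of 16, plain background subtraction, median centring or the scanner's log ratio. The summed intensity of the proximal tubule markers was 313220 and 355671 in mutant and 380757 and 397225 in wild type.

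Macrophage, adipocyte and fibroblast markers mostly rose in the same RNA, unlike the erythroid, endothelial and lymphocyte lists described above. Of 14 macrophage markers 10 rose and 0 fell (median 0.92), led by Lyz2 (2.50), Ctss (2.06), C1qa (1.86), Tyrobp (1.63) and Aif1 (1.59). Their summed intensity was 17957 and 19770 in mutant against 6675 and 7224 in wild type. Of 12 adipocyte markers 8 rose and 1 fell (median 0.99), with Cfd at 3.17, Car3 at 2.33, Adipoq at 2.23, Cidec at 2.10 and Fabp4 at 1.23; the fall was in Lpl (-0.90), and the sums were 43268 and 44306 against 20744 and 23202. All 8 measured fibroblast markers rose (median 1.44), among them Col3a1 (1.97), Col1a2 (1.96), Lum (1.60), Col1a1 (1.46) and Vim (1.43), with sums of 14156 and 15551 against 5674 and 6358. All of these markers were well above background in both channels, so none was absent from either genotype. Their part in the ratios of the brush border genes was not tested.

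**Figure D4:**
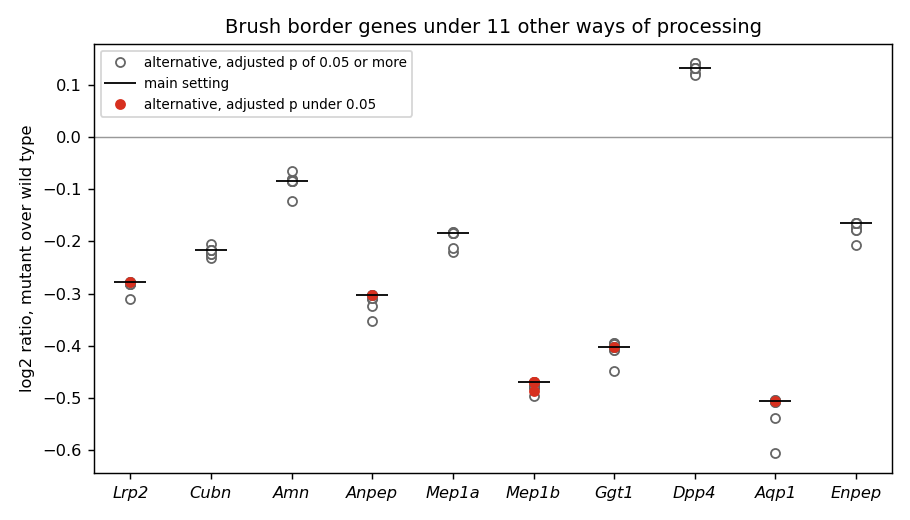
Mean log2 ratio of each brush border gene (vertical axis) in the main setting (bars) and in 11 other ways of processing (open circles, or filled where the adjusted p was under 0.05). The Mep1b ratio stays between -0.50 and -0.47 while its call comes and goes, and Aqp1 has the widest range, from -0.61 to -0.50.

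Over the 11 alternatives with a test, the log2 ratio of Amn ran from -0.12 to -0.07, that of Lrp2 from -0.31 to -0.28, that of Cubn from -0.23 to -0.20, that of Ggt1 from -0.45 to -0.39 and that of Dpp4 from 0.12 to 0.14. With limma's prior set to follow intensity and to be robust, both changed together, 5 genes were called lower, namely Lrp2 (adjusted p = 0.0116 in limma), Anpep (0.00476), Mep1b (9.92e-07), Ggt1 (0.000109) and Aqp1 (2.52e-07). That setting also called 932 genes lower of all 18357, against 223 in the main setting, and for Aqp1 it made the call although the arrays gave -0.80 and -0.21.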

How the data were processed

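Each array was a 2-colour Agilent mouse array. Labelling started from 500 ng of total RNA and hybridisation from 750 ng of cRNA per dye, for 17 hours, per the labels, and Agilent Feature Extraction (8.1.1.1 per the file headers) read the scans. Per the file headers, the deposited intensity values are mean spot and median local background signals before normalization, and the deposited log10 ratios of Cy5 over Cy3 and their p-value come from the scanner software after its own background and dye correction. The authors' deposited value table holds the same log10 ratios with the sign turned (largest difference 0, column medians 0).

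R 4.3.3 and limma 3.58.1 were used. Intensities were corrected with normexp (offset 50) and loess within arrays (controls without weight), and ratios turned to mutant over wild type. The offset makes log2 ratios understate the change, most so for dim spots. Controls and 88 outlier-flagged spots were dropped. A spot was kept where both arrays had the mutant channel, or both the wild type channel, well above background. The probe of highest mean intensity stood for its gene. For 18357 genes, limma set the mean log2 ratio against 0 (1 residual and 6.58 prior degrees of freedom) with Benjamini-Hochberg adjustment. SDs are between the 2 arrays. As both genotypes shared each array, every ratio is within a slide; dye orientation and slide cannot be told apart. The steps were tested on simulated data whose planted changes were larger than any ratio of the brush border genes. Recovery of changes as small as theirs was not tested.

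The members and gene lists were chosen with earlier results of these data known, so no p is given over a list. Named from each list are up to 5 called genes of largest absolute mean, or 2 where none was called; a few genes named by this rule are not reported here. With 2 arrays of 1 comparison, no gene is named for a like pattern. Alternatives changed the background correction, normalization, ratio source, filter, probe rule, prior, fold minimum and the arrays used.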

Additional observations from a re-analysis of the deposited data

How the results depend on the processing

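Each of the 10 genes kept the sign of its ratio in all 13 alternatives that give one, but several of these could not change it. The filter settings, each probe on its own and the trended, robust prior left every main ratio of the 10 as it was. The mean over probes changed only that of Lrp2. The value table repeats the scanner's ratios, and the single arrays repeat the main ratios of each array. The median of the 10 stayed between -0.27 and -0.25 over the 11 alternatives with both arrays, and was -0.28 and -0.19 for a single array (without replicate 2 and without replicate 1). The count of members called lower, 1 in the main setting, was 5 with a trended, robust prior. It was 0 with offset 16, plain subtraction, median centring, the scanner's log ratio, the value table, no filter on dim spots, each probe tested on its own, and a 1.5-fold minimum on both arrays. The adjusted p of Mep1b was 0.149, 0.181, 0.164, 0.265, 0.265, 0.0591 and 0.0570 in the first 7 of these. The 1.5-fold minimum excludes a ratio of this size; the cause of the other shifts was not tested. With the scanner's ratios limma called 0 of all genes, with 2521 at an unadjusted p under 0.05. Over all genes, calls higher and lower were 302 and 56 with offset 16, 204 and 24 with plain subtraction, 235 and 48 with median centring, and 1540 and 932 with the trended, robust prior, against 696 and 223. On the related lists, Dab2's list and that of the aquaporins had 0 lower calls with offset 16, plain subtraction, median centring and the scanner's ratios. The hydrolase, scaffold, proximal tubule and erythroid lists also had 0 there, and the single higher calls of the LDL receptor family, the tubular regulators and the lymphocyte markers were lost. With the scanner's ratios the ligand, macrophage, adipocyte and fibroblast lists had 0 calls too. With plain subtraction 6 macrophage and 5 adipocyte markers were called higher.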
